A study of Homo sapiens with 12 samples.

Results

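The resting state of 2 human liver cancer lines, Huh7 and MHCC97H, was compared in the 6 control libraries of an RNA-seq study of 12 libraries. Genes were taken where the mean FPKM over these 6 libraries was at least 1, which left 13191 of the 60664 genes in the table, 11110 of them protein-coding and 1190 long noncoding. FPKM counts fragments scaled to exon length and to library total. Huh7 is a line from a well-differentiated hepatocellular carcinoma, and MHCC97H is a clone picked from a parental hepatocellular carcinoma line for its high rate of metastasis in nude mice. The 3 Huh7 control libraries came from cells given a control mimic, a short double-stranded RNA used as the reference for a mimic of miR-628-3p. The 3 MHCC97H control libraries came from cells with an empty vector, the reference for a vector that expresses miR-628-3p. The labels give both lines as wild type, name no other treatment, and record DMEM with fetal bovine serum for both. Because 1 line received a mimic and the other a vector, the line and the mode of delivery cannot be told apart in any value that follows. The labels do not say that the 3 libraries of a group came from separate cultures, so the p-values measure only the spread between these libraries.

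Hepatocytes make most of the proteins of blood plasma, among them albumin, clotting factors and apolipoproteins, and a network of transcription factors (among them the HNF4, FOXA, CEBP and GATA families) holds those genes on. The fetal liver makes alpha-fetoprotein in place of much of the albumin, and many hepatocellular carcinomas turn this fetal gene on again. In carcinomas the loss of epithelial junctions and a gain of vimentin, matrix and protease genes is known as the epithelial to mesenchymal transition, which is often partial.

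HNF4A and other nuclear receptors bind the motif AGGTCA, commonly as a pair of copies. The motif was searched on both strands in RefSeq promoters (GRCh38.p14), taken as 250 bases before to 50 after the start of a gene. A total of 4 promoters that hold it are printed because they belong to hepatocyte list genes that went opposite ways between the lines: F2 and AMBP were higher in Huh7, and CYP2B6 and CYP3A5 were higher in MHCC97H. Capitals mark the motif, read as AGGTCA or, from the other strand, as TGACCT. Each sequence is on the strand of its gene.

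F2 promoter, chr11:46718963-46719262, plus strand: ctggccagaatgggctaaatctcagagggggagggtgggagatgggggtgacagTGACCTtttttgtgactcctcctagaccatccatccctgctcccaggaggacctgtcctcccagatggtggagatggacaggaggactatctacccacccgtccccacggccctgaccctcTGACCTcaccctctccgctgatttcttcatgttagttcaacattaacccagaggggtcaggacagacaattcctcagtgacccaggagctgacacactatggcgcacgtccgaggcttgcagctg

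AMBP promoter, chr9:114078251-114078550, minus strand: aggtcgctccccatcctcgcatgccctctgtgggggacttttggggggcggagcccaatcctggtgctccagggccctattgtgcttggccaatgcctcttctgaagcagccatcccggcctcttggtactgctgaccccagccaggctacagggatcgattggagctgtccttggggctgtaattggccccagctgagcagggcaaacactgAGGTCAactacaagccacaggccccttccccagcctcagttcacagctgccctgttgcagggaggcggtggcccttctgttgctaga

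CYP2B6 promoter, chr19:40991032-40991331, plus strand: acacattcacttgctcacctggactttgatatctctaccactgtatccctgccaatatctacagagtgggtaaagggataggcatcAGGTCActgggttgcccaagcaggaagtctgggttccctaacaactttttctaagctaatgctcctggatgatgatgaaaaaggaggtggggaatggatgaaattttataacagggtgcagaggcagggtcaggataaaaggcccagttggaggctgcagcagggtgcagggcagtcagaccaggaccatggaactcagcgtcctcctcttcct

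CYP3A5 promoter, chr7:99679947-99680246, minus strand: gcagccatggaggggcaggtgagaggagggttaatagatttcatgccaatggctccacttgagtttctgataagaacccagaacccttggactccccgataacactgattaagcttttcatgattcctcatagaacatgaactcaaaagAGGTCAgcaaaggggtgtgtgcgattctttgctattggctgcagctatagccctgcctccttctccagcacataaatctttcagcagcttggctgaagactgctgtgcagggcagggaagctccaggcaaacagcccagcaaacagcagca

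The motif was present in 22.8% of the 145 promoters found for the hepatocyte gene lists, in 13.9% of all 27305 promoters and in 9.7% of the 9488 promoters of tested genes. Among the hepatocyte list members it was in 11 of 56 promoters of genes at least 2-fold higher in Huh7 and in 6 of 23 promoters of genes at least 2-fold higher in MHCC97H. Over all genes the shares were 10.9% of 1472 promoters for genes at least 2-fold higher in Huh7 and 10.1% of 1639 for those higher in MHCC97H. The FOXA motif TGTTTAC was in 5.52% of the hepatocyte list promoters, 3.41% of all promoters and 2.39% of those of tested genes. For the AP-1 motif TGACTCA these shares were 5.52%, 4.92% and 2.93%, and for the TEAD motif GGAATG 13.8%, 14.0% and 10.8%. These are matches of letters in a window and say nothing of binding. F2 holds 2 matches to AGGTCA and each of the other 3 printed promoters holds 1, and CYP2B6 also holds 1 match to GGAATG, left in lower case.

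The control libraries held between 16472932 and 19161262 reads over the genes of the table, and each had 12500 to 12826 genes at an FPKM of 1 or more. Mitochondrial transcripts made up between 14.2% and 15.1% of the summed FPKM in every control library. The Pearson correlation of log2(FPKM + 1) over tested genes lay between 0.994 and 0.997 for libraries of the same line and between 0.713 and 0.726 across the lines, as a description across genes. Huh7 control library 1 lay furthest from its replicates, with a chi-square per degree of freedom of 11.1 against library 2 and 8.83 against library 3, where the other pairs of a line gave 2.06 to 3.92. Markers of other cell types were mixed. PTPRC, CD3E, MS4A1 and CD68 for leukocytes, CDH5 and VWF for endothelium and DCN, COL1A1 and POSTN for fibroblasts stayed under a mean of 0.15 FPKM in both lines, while 4 of 14 leukocyte, 2 of 12 endothelial and 3 of 14 fibroblast and stellate cell markers passed the filter and are described with the bile duct markers. The last of these counts includes a long noncoding gene with the symbol RGS5.

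Most genes differed between the lines. Differences are Huh7 minus MHCC97H on the log2(FPKM + 1) scale, tested with limma, and a gene was called where its Benjamini-Hochberg adjusted p over all tested genes was under 0.05. The test called 11142 genes, or 84.5% of those tested, with 5563 higher in Huh7 (42.2%) and 5579 higher in MHCC97H (42.3%). For 11277 genes, or 85.5%, the values of the 2 groups did not overlap. Because so many genes were called, a log2 difference of at least 1 was also asked for, and 2128 genes (16.1%) were then called as at least 2-fold higher in Huh7 and 2388 (18.1%) as at least 2-fold higher in MHCC97H. At 8-fold or more, a log2 difference of 3, there were 251 genes higher in Huh7 and 386 higher in MHCC97H. The median difference over all tested genes was -0.0033, and 2669 genes (20.2%) lay within 0.25 of 0. The median size among called genes was 0.81 and the median standard error 0.065. The median GC content was 45.8% among genes at least 2-fold higher in Huh7, 51.3% among those higher in MHCC97H and 47.6% over all, and with a GC and length correction the 2-fold counts were 2238 and 2167. Every list below is described by its counts and its median beside these background shares, with no test of the list. A member near 0 in 1 line passed the filter only through the other line, so its direction was fixed in advance. Counts and medians of lists with such members are descriptions only and give no support for a direction.

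**Figure D1:**
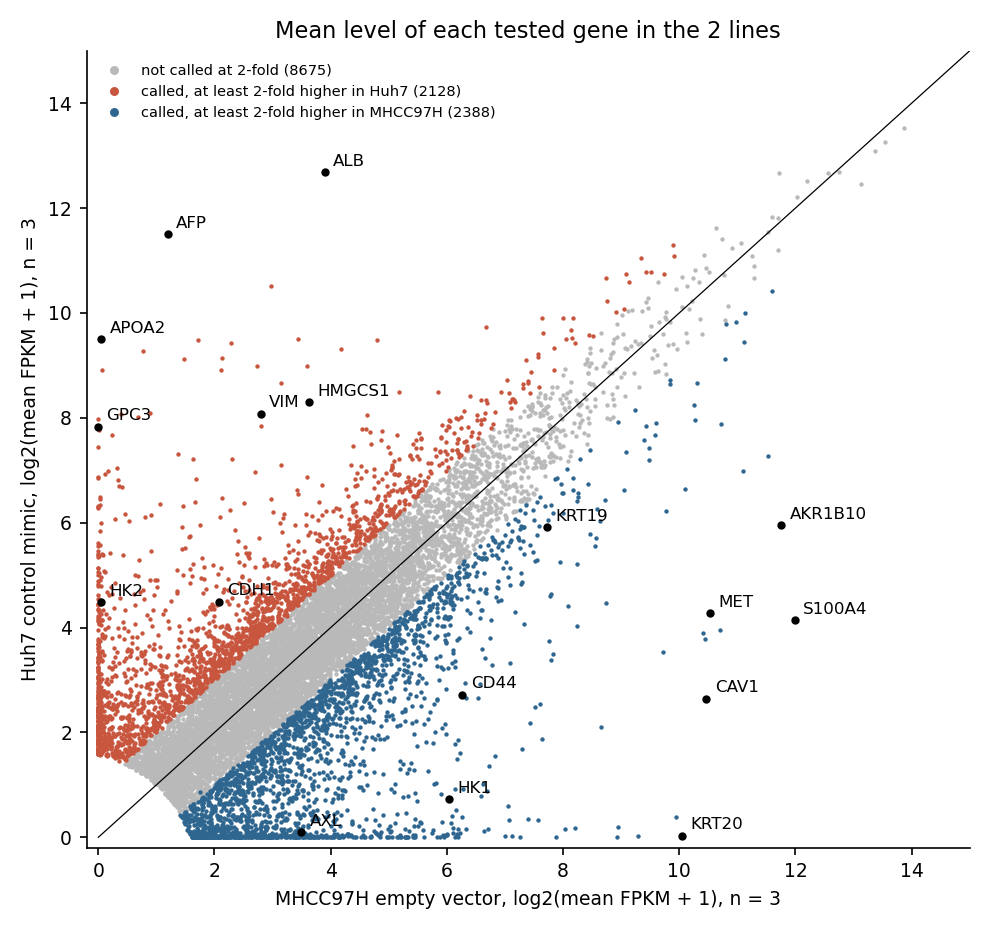
Mean level of each of the 13191 tested genes in MHCC97H (x axis) and Huh7 (y axis) control libraries, both as log2(mean FPKM + 1), with genes called at 2-fold in colour and named genes as black points. The 2128 genes higher in Huh7 include ALB, AFP and GPC3 in the upper left, and the 2388 higher in MHCC97H include KRT20, S100A4, CAV1 and MET in the lower right.

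The genes of secreted liver proteins were far higher in Huh7. ALB (ENSG00000163631, chromosome 4, 73397114 to 73421482, GRCh38.p13) encodes albumin, the main plasma protein. It stood at 6395, 6571 and 6882 FPKM in the 3 Huh7 control libraries and at 14.4, 13.3 and 14 in MHCC97H. The groups lay 476-fold apart in mean FPKM, and the log2 difference was 8.79 (SE 0.045, limma adjusted p = 3.6e-11). SERPINA1, the alpha-1-antitrypsin gene, was at 748, 702 and 695 FPKM in Huh7 and 2.2, 2.22 and 2.42 in MHCC97H. AMBP, whose promoter is printed above, encodes the precursor of alpha-1-microglobulin and bikunin and was at 1539, 1426 and 1437 against 6.59, 6.4 and 7.68. AHSG, the fetuin-A gene, was at 568, 571 and 538 against 1.75, 1.7 and 1.91. TTR, which encodes the thyroxine carrier transthyretin, was at 239, 222 and 226 against 7.41, 5.57 and 4.98. In all of these genes each Huh7 library lay above each MHCC97H library, and the MHCC97H values were low but above 0. Of the 19 plasma protein genes tested, 18 were called higher in Huh7, 17 of them at 2-fold, and the list median was 5.22. Members near 0 in MHCC97H, such as HP below, passed the filter only through Huh7, so this count does not measure how the list leans. The exception was CP, the copper-carrying ferroxidase ceruloplasmin, at 71.9 ± 14.2 FPKM in Huh7 and 227 ± 15.2 in MHCC97H (mean ± SD, n = 3), a log2 difference of -1.66. HP, the haptoglobin gene, averaged 76.3 FPKM in Huh7 and was at 0 in each MHCC97H library, so it was at least 683-fold higher in Huh7 against a floor of 3 reads per library. The list as a whole took between 2.30% and 2.41% of the summed FPKM in the Huh7 libraries and between 0.0732% and 0.0802% in MHCC97H. In bulk RNA, fewer cells that make a product and less of it per cell cannot be told apart. The 8 list genes that were not tested, ITIH1, ITIH3, ITIH4, SERPINA3, A1BG, FETUB, AFM and HRG, averaged under 1 FPKM in both lines, and those of SERPINA3 and ITIH4 are uncertain because another annotated gene on the same strand covers nearly all of their span.

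Clotting and complement genes followed the same direction. FGB, the fibrinogen beta chain, was at 655, 712 and 699 FPKM in Huh7 and 4.07, 3.54 and 3.97 in MHCC97H, and its partners FGA and FGG had log2 differences of 6.26 and 6.80. C3, the central complement component, was at 205, 206 and 201 against 0.213, 0.167 and 0.157. F2, the prothrombin gene, averaged 82.4 ± 4.02 against 4.72 ± 0.435 FPKM, a difference of 3.87. None of these genes had overlapping groups. Across the list 22 of 25 tested genes were called higher in Huh7, 20 at 2-fold, with a median of 3.67. SERPINC1, C8A, C8B and F11 were at 0 in each MHCC97H control library, and their Huh7 means lay between 3.39 and 20.6 FPKM. They passed the filter only through Huh7, so their part in the count was fixed in advance. The genes called the other way were C1R (-2.37) and C1S (-1.26), the proteases that start the classical complement pathway, and C4BPA (-0.44), part of a complement inhibitor. F9 was at 0 in all 6 control libraries, and PLG, the plasminogen gene, averaged 0.00539 FPKM in Huh7 and 0 in MHCC97H.

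Apolipoprotein genes showed the same pattern with few exceptions. APOA2, an HDL apolipoprotein, was at 797, 703 and 675 FPKM in Huh7 and 0, 0 and 0.116 in MHCC97H. APOB, the scaffold of VLDL and LDL, was at 221, 305 and 291 against 0.837, 0.819 and 0.908, and MTTP, the transfer protein that loads lipid onto it, had a difference of 2.59. APOA1 averaged 102 ± 5.15 against 0.32 ± 0.175 FPKM, a difference of 6.29. Both lines were separated without overlap in each of them. Of 16 tested genes 14 were called higher in Huh7, and the median was 2.32. APOA2 is in this count although it passed the filter only through Huh7. SCARB1, the receptor that takes lipid from HDL, was called higher in MHCC97H (-0.52).

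The transcription factors that keep hepatocyte genes on had a list median of 0.50, beside 5.22 for the plasma proteins they are known to drive. HNF4A, the nuclear receptor at the centre of the network, was at 21.7, 21 and 19.9 FPKM in Huh7 and 6.47, 6.64 and 6.57 in MHCC97H, a difference of 1.53 (SE 0.046, limma adjusted p = 5.0e-08). It was thus expressed in both lines, with no overlap between groups. CEBPA, FOXA2 and GATA4 were also higher in Huh7, with differences of 1.59, 0.75 and 2.25. PROX1, a factor of early hepatoblasts, had the largest difference of the list, 3.79. FOXA1 averaged 18.8 ± 0.837 FPKM in Huh7 and 18.1 ± 0.659 in MHCC97H and was not called (limma adjusted p = 0.35). The factors called higher in MHCC97H included ATF5 (-2.43), CREB3L3 (-2.22), which acts in fasting lipid metabolism, HNF4G (-1.64) and CEBPB (-1.42). In total 14 of 26 tested factors were called higher in Huh7 and 11 higher in MHCC97H, beside 42.2% and 42.3% over all genes.

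Enzymes of nitrogen and amino acid metabolism were split. ARG1, arginase 1, the last enzyme of the urea cycle, was at 87.7, 89.1 and 89.2 FPKM in Huh7 and 0.0404, 0 and 0.0379 in MHCC97H. CPS1, its first enzyme, was low in both, at 2.54, 2.4 and 2.15 against 0.0102, 0 and 0.0285. OTC averaged 0.0476 FPKM in Huh7 and 0 in MHCC97H and was not tested, and its level is uncertain because another annotated gene covers it on the same strand. ASS1, which makes argininosuccinate, differed little, at 13.7 ± 0.216 against 15.4 ± 0.644 FPKM (difference -0.15, limma adjusted p = 0.014), and with the GC and length correction its difference was 0.07 and no longer called. HAL, which starts histidine breakdown, was higher in Huh7 by 3.29. HPD and FAH, steps of tyrosine breakdown, were higher in MHCC97H, with differences of -1.43 and -1.06. The list held 16 tested genes of 25, with 7 at least 2-fold higher in Huh7 and 2 in MHCC97H, beside 16.1% and 18.1% over all genes.

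Drug and bile acid handling was the hepatocyte function that ran against the others. GSTA1, an alpha-class glutathione transferase of liver, was at 1.92, 1.67 and 1.84 FPKM in Huh7 and 72.2, 66.2 and 75.4 in MHCC97H. GSTP1, the pi-class enzyme, was at 892, 855 and 793 against 91, 111 and 100.3. GSTP1 was thus the higher of the pair in every library, and GSTA1 made up 0.21% ± 0.02 of their summed FPKM in Huh7 and 41.5% ± 3.66 in MHCC97H (mean ± SD, n = 3). EPHX1, microsomal epoxide hydrolase, was at 16.1, 15.4 and 14.5 against 301, 292 and 306. CYP2B6 and CYP3A5, cytochromes P450 of drug oxidation with the promoters printed above, were higher in MHCC97H with differences of -3.56 and -2.08, as was the bilirubin conjugate pump ABCC2 (-1.97). UGT2B4, a glucuronosyltransferase, went the other way, at 116 ± 4.95 FPKM in Huh7 and 0 in each MHCC97H library. CYP1A1, the dioxin-inducible P450, averaged 27.7 FPKM in Huh7 and 0.226 in MHCC97H. Of 19 tested genes 14 were called higher in MHCC97H, all of them at 2-fold, and the median was -1.90. The genes that mark mature zonated hepatocytes, CYP7A1, CYP8B1, SLC10A1, CYP2E1, CYP1A2 and ADH1B, averaged under 0.15 FPKM in both lines.

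Among fetal liver and progenitor genes each line had its own members. AFP (ENSG00000081051, chromosome 4, 73431138 to 73456174), the fetal counterpart of albumin and a serum marker of hepatocellular carcinoma, was at 2679, 2952 and 3071 FPKM in Huh7 and 1.35, 1.1 and 1.42 in MHCC97H. This was the largest difference of all tested genes toward Huh7, 10.31 (SE 0.071, limma adjusted p = 7.3e-11). GPC3, a membrane heparan sulfate proteoglycan used as a diagnostic marker, was at 235, 218 and 228 in Huh7 and 0 in each MHCC97H library, at least 3002-fold higher against a floor of 3 reads per library. LIN28B, which blocks let-7 maturation, averaged 78.8 ± 2.33 FPKM in Huh7 and was at 0 in each MHCC97H library. The retrotransposon-derived PEG10 and the trypsin inhibitor gene SPINK1 were also higher in Huh7, with differences of 6.06 and 5.41. On the other side, AKR1B10, an aldo-keto reductase raised in many liver tumours, was at 64.6, 55.3 and 62.8 against 3400.1, 3410.5 and 3551. The imprinted noncoding RNA H19 was at 0 in each Huh7 control library and at 31.4, 27.3 and 54.3 FPKM in MHCC97H. CD44, a hyaluronan receptor used as a progenitor marker, was at 5.45, 5.9 and 5.41 against 78, 75.6 and 74.6, while PROM1 and EPCAM, used for the same purpose, were higher in Huh7 by 2.67 and 2.63. The count was 10 genes at 2-fold toward Huh7 and 5 toward MHCC97H, of 19 tested, beside 16.1% and 18.1% over all genes.

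**Figure D2:**
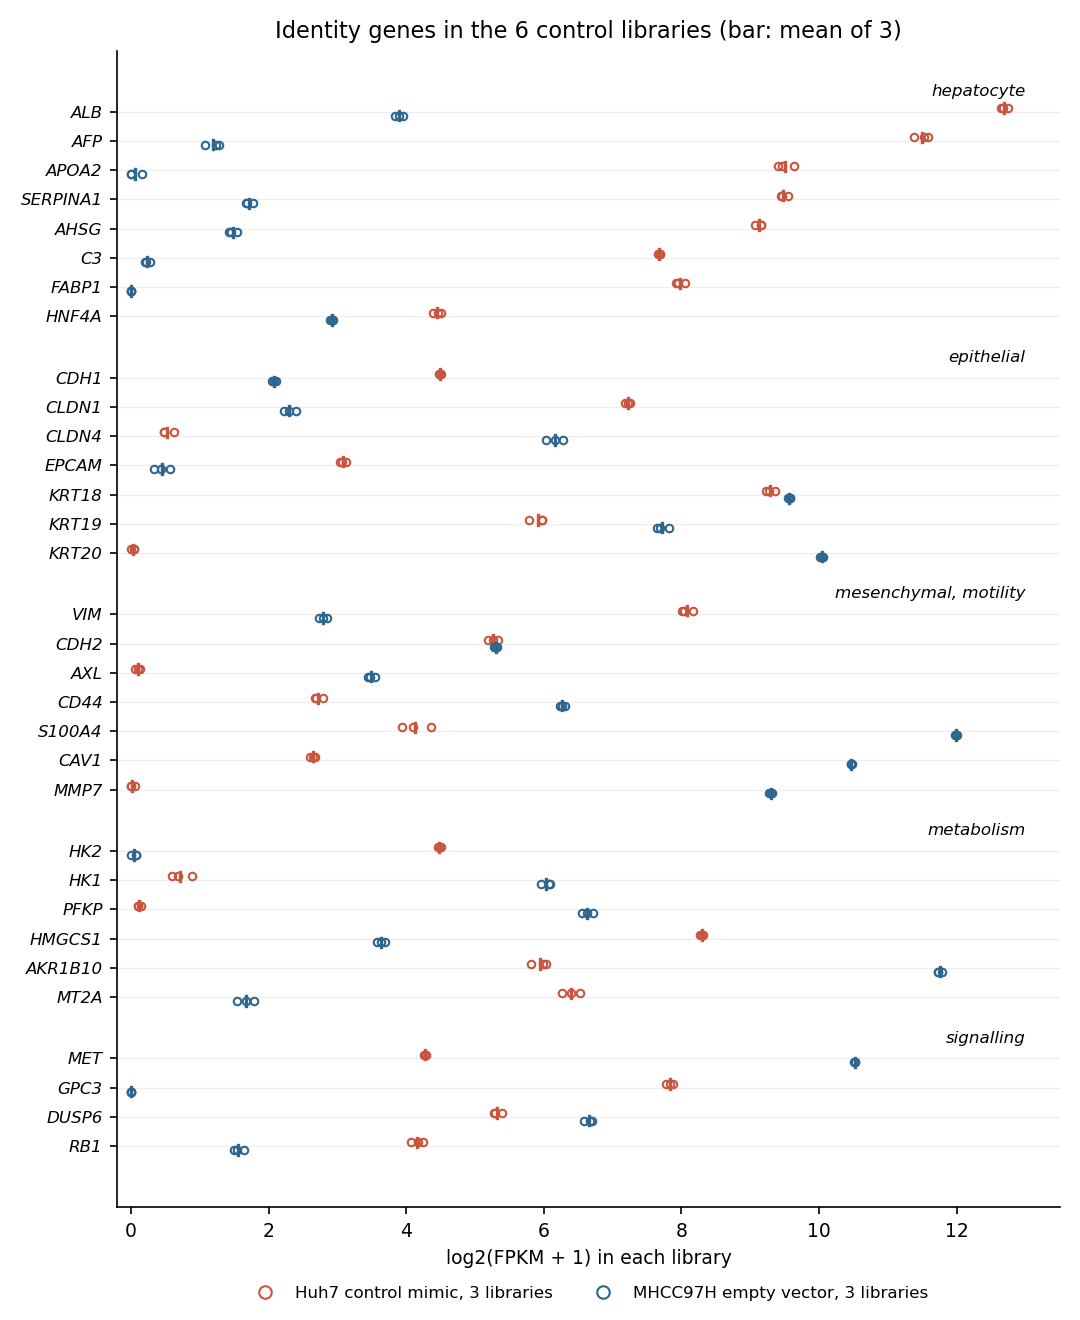
Level of 32 identity genes in each of the 6 control libraries as log2(FPKM + 1), with open circles for libraries and a short bar for the mean of 3. Plasma protein genes and AFP lie far to the right in Huh7, KRT20, S100A4, CAV1, MMP7 and MET lie far to the right in MHCC97H, and the CDH2 values of the 2 lines lie close together.

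Bile duct and other cell type markers were read as levels only. SPP1, the osteopontin gene, was at 11.5, 9.63 and 10.5 FPKM in Huh7 and 851, 802 and 886 in MHCC97H. KRT19 was at 61.7, 62.1 and 53.9 against 206, 226 and 199, and KRT7, the other bile duct keratin, averaged 0.0242 against 5.7. SOX9 was expressed in both lines, at 14.9 ± 1.02 and 20.3 ± 0.193 FPKM. KRT23, another keratin, was higher in Huh7 (3.38), and CFTR and AQP1 averaged under 1 FPKM in both. Of the 9 tested cholangiocyte markers 7 were called higher in MHCC97H. The leukocyte markers summed to 158 to 196 FPKM in the Huh7 libraries and 20.8 to 23.5 in MHCC97H. LYZ, the lysozyme gene of myeloid cells, averaged 158 FPKM in Huh7 and 1.58 in MHCC97H, and CD3D, a T cell receptor chain, 14.6 and 0, whereas PTPRC, the pan-leukocyte gene, averaged 0.12 and 0.0286. CD79A, a B cell receptor chain, averaged 0.0331 in Huh7 and 19.4 in MHCC97H, where MS4A1, a B cell surface gene, was at 0. CD14, a monocyte receptor, averaged 3.42 and 0.937. The endothelial markers summed to 2.28 to 2.59 FPKM in Huh7 and 25.3 to 26.2 in MHCC97H. ESAM, an endothelial adhesion molecule, averaged 0.247 and 19.7, with VWF at 0 and 0.0234 and CDH5 at 0.014 and 0.132. PECAM1, an endothelial and platelet adhesion molecule, averaged 2.17 and 4.34 and was called higher in MHCC97H (-0.75), and KDR, a VEGF receptor, was not tested and averaged 0 and 1.62. The fibroblast and stellate cell markers summed to 48.1 to 61.3 FPKM in Huh7 and 4.62 to 5.38 in MHCC97H. LUM, a matrix proteoglycan of fibroblasts, averaged 44.6 and 1.82, with DCN at 0.00573 and 0.0279. LUM (4.01) and COL1A2 (2.75) were at least 2-fold higher in Huh7. So was a long noncoding gene with the symbol RGS5 (1.26), which stands in the list and its sum in place of the protein-coding RGS5. Of those not tested PDGFRA averaged 0.714 and 0, COL3A1 0.491 and 0.0135, and LRAT, which esterifies retinol in stellate cells, 0.011 and 1.73. The noncoding RGS5 gene, PDGFRA and AQP1 share most of their span with another annotated gene on their strand, so that their levels are uncertain. For the noncoding gene the other is the protein-coding RGS5, whose level is not given here. The part of other cell types in the differences between the lines was not tested.

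Both lines expressed epithelial genes, but in part different members. CDH1, E-cadherin, was at 21.3, 21.5 and 21.8 FPKM in Huh7 and 3.21, 3.3 and 3.15 in MHCC97H (difference 2.42, SE 0.042, limma adjusted p = 3.4e-09). CLDN1, a tight junction claudin, was at 152, 149 and 144 against 3.91, 3.66 and 4.26. CLDN4, another claudin, was at 0.539, 0.4 and 0.394 against 64.3, 76.4 and 71. The claudins therefore went opposite ways with no overlap between groups. KRT8 and KRT18, the keratin pair of simple epithelia and hepatocytes, were high in both lines, at means of 774 and 624 FPKM in Huh7 and 1343 and 758 in MHCC97H. KRT20 (ENSG00000171431, chromosome 17, 40875889 to 40885242), a keratin of intestinal epithelium, was at 0.0316, 0 and 0.0337 FPKM in Huh7 and 1068, 1060.3 and 1030.3 in MHCC97H. Its difference of -10.01 (SE 0.036, limma adjusted p = 1.7e-11) was the largest of all tested genes toward MHCC97H. Desmosome genes were mostly higher in MHCC97H, with differences of -2.21 for DSG2, -2.51 for PKP3 and -1.51 for JUP, while PKP2 was higher in Huh7 by 1.32. Gap junction genes split between GJB1, the hepatocyte connexin (4.01), and GJB2 (-1.68). SPINT1, an inhibitor of membrane serine proteases, and ELF3, an epithelial ETS factor, were higher in MHCC97H (-3.29 and -2.86). In all 11 of 32 tested members were called higher in Huh7 and 20 in MHCC97H, beside 42.2% and 42.3% over all genes. The list median was -0.78. A further 13 members averaged under 1 FPKM over the 6 libraries, among them ESRP1, OVOL1 and GRHL2.

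Mesenchymal genes were split in the same way, and vimentin was on the side of the line with more E-cadherin. VIM, the intermediate filament of mesenchymal cells, was at 288, 258 and 262 FPKM in Huh7 and 6.22, 5.67 and 5.93 in MHCC97H, a difference of 5.28 (SE 0.055, limma adjusted p = 3.8e-10). CDH2, N-cadherin, was at 37.4, 39.3 and 35.4 against 37.6, 39.1 and 38.5 and was not called (limma adjusted p = 0.44). The groups of VIM did not overlap and those of CDH2 did. CDH1 made up 36.6% ± 1.40 of the summed FPKM of the 2 cadherins in Huh7 and 7.74% ± 0.15 in MHCC97H (mean ± SD, n = 3). FN1, fibronectin, was abundant in both, at 559 ± 2.29 and 1763 ± 75.1 FPKM, and higher in MHCC97H (-1.66). S100A4, a calcium-binding protein linked to cell motility, was at 16.1, 14.3 and 19.6 against 4096, 4045 and 4079. CAV1, the caveolae protein, was at 5.41, 5.06 and 5.29 against 1409.7, 1422 and 1411. AXL, a receptor kinase often tied to the mesenchymal state, was at 0.0726, 0.0996 and 0.0386 against 10.1, 10.7 and 9.95. All of them were higher in MHCC97H in every library. Collagens divided by type: COL6A1 and COL6A2 were higher in MHCC97H (-5.81 and -6.14), and COL5A2 and COL1A2 in Huh7 (2.87 and 2.75). Of the factors that drive the transition, ZEB1 was higher in MHCC97H (-0.76, limma adjusted p = 0.011) and SNAI1 was not called (limma adjusted p = 0.052). In the miR-628-3p libraries ZEB1 differed by -0.27 and was not called (limma adjusted p = 0.25), while SNAI1 was called (-0.96). SNAI2 was at 0 in each Huh7 control library and 1.69, 1.23 and 1.61 FPKM in MHCC97H, and TWIST1, TWIST2 and PRRX1 averaged under 0.2 FPKM in both. Of 22 tested genes 7 were at least 2-fold higher in Huh7 and 12 in MHCC97H, beside 16.1% and 18.1% over all genes.

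Genes of adhesion to matrix and of its breakdown leaned to MHCC97H. ITGA3, the alpha chain of a laminin receptor, was at 0.0584, 0.0427 and 0.0248 FPKM in Huh7 and 59.7, 68.8 and 60.9 in MHCC97H. ITGB4, which pairs with ITGA6 in hemidesmosomes, was at 0.126, 0.0885 and 0.103 against 43.9, 52.7 and 44.9, and ITGA6 differed by -2.41. ITGB1, the common beta chain, averaged 231 and 216 FPKM and was not called (limma adjusted p = 0.067). The laminin chains LAMA3 and LAMB3 were higher in MHCC97H (-2.64 and -2.63) and LAMB2 in Huh7 (1.43). Among proteases MMP7, matrilysin, was at 0, 0.0466 and 0 against 632, 619.6 and 635. MMP1 and the plasminogen activator PLAT were also higher in MHCC97H (-3.44 and -4.24), and so were the inhibitors TIMP1, TIMP2 and TIMP3 (-3.77, -4.38 and -5.80). The Huh7 side held MMP11 (3.15), the cathepsin CTSV (1.40) and SPINK1. Counts at 2-fold were 2 toward Huh7 and 7 toward MHCC97H among 16 integrins and laminins, and 3 and 18 among 29 proteases and inhibitors, beside 16.1% and 18.1% over all genes.

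Some glycolytic isozymes differed widely in RNA level between the lines, and others were expressed in both. Hexokinase traps glucose in the cell, and HK2, the isozyme typical of tumours, was at 21.8, 21 and 21.2 FPKM in Huh7 and 0.052, 0 and 0.0487 in MHCC97H. HK1, the isozyme of most tissues, was at 0.602, 0.507 and 0.843 against 66.8, 66.3 and 61.1. HK2 thus made up 97.1% ± 0.77 of the summed FPKM of the pair in Huh7 and 0.05% ± 0.05 in MHCC97H (mean ± SD, n = 3). PFKP, the platelet-type phosphofructokinase, was at 0.109, 0.0795 and 0.0694 against 97.7, 104 and 93.1, while PFKL, the liver type, averaged 22.5 and 22 and was not called (limma adjusted p = 0.69). LDHB, the lactate dehydrogenase chain of oxidative tissues, was at 0.0438, 0.0401 and 0.0466 against 10.9, 12.4 and 10.9, and LDHA, the other chain, was high in both at 1066 ± 84.1 and 584 ± 16.4 FPKM. Of the enolase genes ENO2 and ENO3, ENO2 made up 5.15% ± 0.33 of the sum in Huh7 and 90.0% ± 1.68 in MHCC97H. The third enolase gene of the list, ENO1, is not in that sum. The glucose transporter SLC2A1 was somewhat higher in MHCC97H (-0.69), and the liver transporter SLC2A2 averaged 0.211 and 0 FPKM. PKM was high in both lines (931 and 1776) and the liver pyruvate kinase PKLR near 0 (0.129 and 0.012). ALDOA, at 2.83 and 2.01 FPKM, lies within another annotated gene on its strand, so that its level is uncertain. The list had 3 genes at 2-fold toward Huh7 and 8 toward MHCC97H of 24, beside 16.1% and 18.1% over all genes. Median rescaling or the GC and length correction raised the first count to 6. In glycogen breakdown, PYGL, the liver phosphorylase, made up 59.0% ± 1.11 of the sum with PYGB, the brain type, in Huh7 and 5.49% ± 0.43 in MHCC97H. FBP1, the gluconeogenic phosphatase, was at 0, 0.0354 and 0.247 FPKM in Huh7 and 7.95, 7.89 and 7.92 in MHCC97H, and PCK1 was at 0 in all 6 libraries.

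Cholesterol synthesis was higher in Huh7 along nearly the whole pathway. HMGCS1, which makes HMG-CoA, was at 315, 309 and 317 FPKM in Huh7 and 11.4, 10.9 and 11.9 in MHCC97H, a difference of 4.66 (SE 0.040, limma adjusted p = 1.7e-10). MVD and MSMO1, later steps, had differences of 2.98 and 2.19. Of 23 tested genes 20 were called higher in Huh7, 14 at 2-fold and 0 at 2-fold the other way, with a median of 1.27. The genes called higher in MHCC97H, FDFT1, PMVK and NSDHL, had differences of -0.36, -0.34 and -0.18.

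Fatty acid genes had no common direction. FABP1, the liver fatty acid binding protein, was at 265, 246 and 241 FPKM in Huh7 and 0 in each MHCC97H library, at least 733-fold higher against a floor of 3 reads per library. ELOVL2, an elongase of long polyunsaturated fatty acids, averaged 17.3 ± 0.613 FPKM in Huh7 and 0 in MHCC97H. CIDEC, a lipid droplet fusion protein, was at 1.62, 2.64 and 1.91 against 72.5, 74.6 and 73.4. PLIN2 and PLIN4, coats of lipid droplets, differed by 1.77 and -3.25. The synthesis genes FASN and ACACA were higher in MHCC97H (-0.94 and -0.90), and ACLY was not called (limma adjusted p = 0.46). In oxidation ACAA1, SLC25A20 and CPT2 were higher in Huh7 (2.87, 2.87 and 1.98), and CPT1A, the entry step, in MHCC97H (-1.77). The medians were 0.20 over 30 synthesis and storage genes and -0.02 over 21 oxidation genes, close to that of all genes.

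Genes that the transcription factor NRF2 turns on were mostly higher in MHCC97H. KEAP1 holds NRF2 down and marks it for degradation, and it was at 15.5, 15.8 and 14 FPKM in Huh7 and 3.4, 3.26 and 3.14 in MHCC97H. NFE2L2, the NRF2 gene, differed little (0.33, limma adjusted p = 0.025). GPX2, a glutathione peroxidase of gut epithelium, was at 14.9, 11.5 and 15.2 against 1349, 1331 and 1393. SLC7A11, the cystine importer, was at 1.31, 2 and 1.89 against 36.3, 33.7 and 37. The groups of KEAP1, GPX2 and SLC7A11 did not overlap, with KEAP1 high in Huh7 and the other two high in MHCC97H. AKR1C3, HMOX1, TKT and GCLM had differences of -6.76, -3.67, -3.02 and -2.28. NQO1, the best known NRF2 target, averaged 774 ± 45.4 and 839 ± 8.05 FPKM and was not called (limma adjusted p = 0.055), and neither were GPX4 and AKR1C2. AKR1C1, AKR1C2 and AKR1C3 are close paralogs and may share reads. Of 24 tested genes, with KEAP1 and NFE2L2 counted among them, 13 were at least 2-fold higher in MHCC97H and 1, KEAP1, in Huh7.

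Iron and metal genes leaned to Huh7. HAMP, which encodes hepcidin, the liver hormone of iron balance, was at 117, 96.8 and 96.9 FPKM in Huh7 and 0.577, 0.143 and 0.135 in MHCC97H. HJV and TFR2, which signal iron status to HAMP, were higher in Huh7 by 4.08 and 2.27. MT2A, a metallothionein that binds zinc and copper, was at 83, 91.6 and 76.3 against 1.9, 2.46 and 2.19, and MT1F and MT1G were at 0 in each MHCC97H library. SLC39A8, a zinc importer, was also higher in Huh7 (4.01). The ferritin genes FTH1 and FTL differed by 0.12 and -0.67. In total 9 of 19 tested genes were at least 2-fold higher in Huh7 and 2 in MHCC97H, beside 16.1% and 18.1% over all genes.

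Growth factor signalling differed most at MET. MET, the receptor of hepatocyte growth factor, was at 18.4, 18.5 and 18.2 FPKM in Huh7 and 1477, 1460.0 and 1475 in MHCC97H, a difference of -6.25 (SE 0.030, limma adjusted p = 2.7e-11). Its ligand HGF averaged 0.208 and 0.0196 FPKM. EGFR was at 17.7 ± 0.358 and 10.4 ± 0.442 FPKM, higher in Huh7 by 0.71, and ERBB3 was not called, at 28.6 and 28.5. The FGF19 receptor pair was present in Huh7, where FGFR4 averaged 28.6 FPKM and its co-receptor KLB 26.8. In MHCC97H FGFR4 averaged 24 and KLB 0.0283, so that the receptor was nearly level (0.25) and the co-receptor was not (4.75). FGF19 itself averaged 2.19 FPKM in Huh7 and was at 0 in each MHCC97H library. FGFR3 was higher in Huh7 by 3.24, and DDR1, a collagen receptor, in MHCC97H (-2.90). Of 19 tested receptors 8 were called in each direction, beside 42.2% and 42.3% over all genes. Ligands and binding proteins leaned to MHCC97H with 14 of 21 at 2-fold. IGFBP2, which binds IGF outside the cell, was at 0.0404, 0.0369 and 0.0859 against 71.1, 78.2 and 73.1, and IGFBP3, IGFBP4 and IGFBP1 went the same way (-5.38, -3.65 and -3.43). The EGFR ligands EREG and AREG were higher in MHCC97H (-3.62 and -2.46), and PDGFC was higher in Huh7 (2.15).

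Immediate early and feedback genes of MAPK signalling were mostly higher in MHCC97H. DUSP6, a phosphatase that ERK induces and that turns ERK off, was at 40.9, 37.8 and 38.3 FPKM in Huh7 and 101, 103 and 95.5 in MHCC97H. EGR1, an early response factor, was at 0.109, 0.15 and 0.252 against 27.4, 28 and 27.3. FOSL1, an AP-1 subunit, was at 0.402, 0.399 and 0.571 against 25.1, 25.2 and 26. All were higher in each MHCC97H library. DUSP4, PHLDA1 and FOSL2 had differences of -3.83, -3.49 and -3.44. Of 22 tested genes 19 were called higher in MHCC97H, 16 at 2-fold, and the median was -1.93. SPRY4 was the gene called the other way (0.28), and SPRY2 and DUSP1 were not called.

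Other pathways were mixed. In the WNT pathway CTNNB1, beta-catenin, was higher in Huh7, at 193 ± 5.06 against 71.9 ± 0.182 FPKM (1.41), while its target and feedback gene AXIN2 was higher in MHCC97H (-1.92), as were DKK1, DKK3 and WNT5A (-1.57, -2.25 and -3.28). AXIN2 shares part of its span with another annotated gene. For the Hippo effectors, YAP1 differed by -0.40 and its paralog WWTR1, known as TAZ, by -2.89, and WWTR1 made up 13.6% ± 1.01 of the summed FPKM of the pair in Huh7 and 50.9% ± 0.50 in MHCC97H. The YAP and TAZ targets ANKRD1 and CCN1 were nevertheless higher in Huh7 (3.66 and 1.30), and NT5E in MHCC97H (-2.25). In the TGF-beta and BMP pathways ID2, ID4 and the activin antagonist FST were higher in Huh7 (3.05, 3.29 and 3.56), and SMAD3, INHBB and TGFB1 in MHCC97H (-1.99, -2.32 and -1.33). At 2-fold toward Huh7 and MHCC97H the counts were 4 and 8 of 18 for WNT, 6 and 2 of 21 for YAP and TEAD, and 7 and 4 of 28 for TGF-beta and BMP. Over all genes these shares were 16.1% and 18.1%.

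Interferon response and RNA sensing genes were mostly higher in MHCC97H, and inflammatory genes were split. OAS1, an interferon-induced sensor of double-stranded RNA, was at 4.72, 4.35 and 4.69 FPKM in Huh7 and 185, 181 and 181 in MHCC97H, a difference of -5.03 (SE 0.041, limma adjusted p = 1.4e-10). STAT2, a factor of interferon signalling, averaged 6.43 and 11.4 FPKM, higher in MHCC97H (-0.74). STING1, the sensor adaptor for cytosolic DNA, and IRF7 were also higher in MHCC97H (-2.93 and -2.21). TLR3, a receptor for double-stranded RNA, averaged 0.227 and 0.0444 FPKM and was not tested. ISG15, IFIT1 and MX1 were higher in Huh7 by 1.10, 0.85 and 0.61, where the line and its mimic cannot be told apart. Of 24 tested genes 7 were called higher in Huh7 and 17 in MHCC97H. Among inflammatory genes CCL20, a chemokine, was at 719, 709.9 and 716 against 26.7, 26.7 and 27.3, with CXCL6 and CXCL8 also higher in Huh7 (4.00 and 2.33). LCN2, IL1B and BIRC3 were higher in MHCC97H (-3.46, -3.43 and -2.33). Of 23 inflammatory genes 9 were called higher in Huh7 and 10 in MHCC97H. Over all genes the shares called were 42.2% and 42.3%.

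Cell cycle genes had a list median close to that of all genes. MKI67, a marker of cycling cells, was at 18.2, 22.3 and 22 FPKM in Huh7 and 13.1, 12.9 and 12.2 in MHCC97H (0.66), while CCNA2 and TOP2A, also of cycling cells, were not called. RB1, the retinoblastoma gene that restrains entry into S phase, was at 15.7, 18 and 17.1 against 2.14, 1.83 and 1.91. CCND3 and CDKN1C were higher in MHCC97H (-2.19 and -2.11), and MYCN, a proto-oncogene, in Huh7 (3.57). CDKN1A, an inhibitor of cyclin-dependent kinases, was somewhat higher in MHCC97H (-0.59), and MDM2 was not called. The median was 0.10 over 27 cell cycle genes. Among 26 tested genes that are often mutated or amplified in hepatocellular carcinoma, 6 were at least 2-fold higher in Huh7, namely RB1, RPS6KA3, KEAP1, CTNNB1, NRAS and ACVR2A, and 2 in MHCC97H, namely MET and AXIN1. TERT averaged 0.574 and 0.524 FPKM and was not tested. RNA levels do not show which of these genes carry mutations.

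**Figure D3:**
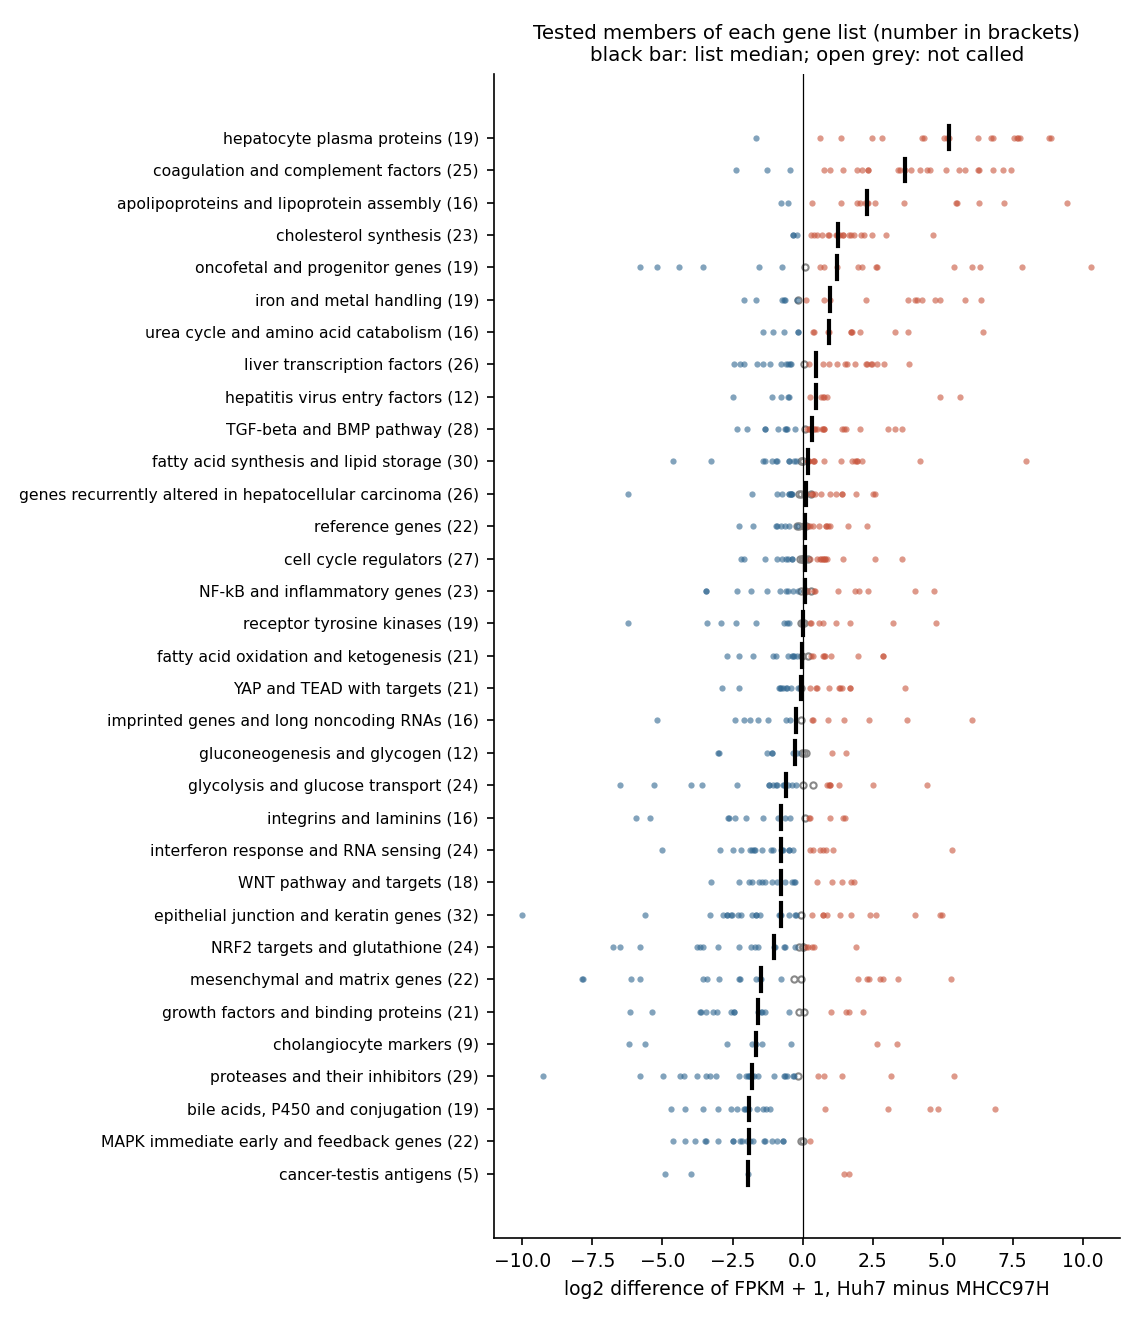
Differences in log2(FPKM + 1), Huh7 minus MHCC97H, of the tested members of gene lists with 5 or more tested members, ordered by the list median (black bar), with called members in colour and the others as open grey circles. Plasma proteins (median 5.22), clotting and complement genes (3.67), apolipoproteins (2.32) and cholesterol synthesis (1.27) stand at the top, and cancer-testis antigens (-1.95), MAPK genes (-1.93) and drug handling genes (-1.90) at the bottom.

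Huh7 is widely used to grow hepatitis C virus, and its entry factors were read in both lines. CLDN1, given above, and SDC2, a heparan sulfate proteoglycan at 48 ± 1.73 FPKM in Huh7 and 0 in MHCC97H, were at least 2-fold higher in Huh7. CD81 and OCLN were higher in Huh7 by 0.67 and 0.87, and SCARB1 in MHCC97H (-0.52). SEC14L2, which permits replication of clinical virus isolates, averaged 0.0138 FPKM in Huh7 and 4.65 in MHCC97H, with part of its span shared with another annotated gene. SLC10A1, the hepatitis B virus receptor, averaged 0.0095 and 0 FPKM. Among noncoding RNAs UCA1 and HULC, both described in liver cancer, were higher in Huh7 (3.71 and 2.39). MAGEA3 and MAGEA6, near-identical germ cell antigens that may share reads, averaged 31.4 and 15.7 FPKM in MHCC97H and 0.0664 and 0.0519 in Huh7. Of 22 reference genes tested, 4 were not called, ACTB among them at 1112 ± 66.3 and 1061 ± 54.8 FPKM (limma adjusted p = 0.32). The share called over all genes was 84.5%. The reference genes had a median difference of 0.10, but PSMB2 and CHMP2A differed by 2.29 and -2.28, and GAPDH by -0.50.

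Some genes were on in 1 line and off in the other, with an FPKM of at least 1 in each library of the first and under 0.1 in each of the other. On in Huh7 and off in MHCC97H were 476 genes, 323 of them protein-coding, led by GC, the vitamin D binding protein (482 FPKM), FABP1, GPC3, A2M, a protease inhibitor of plasma (217), and SERPING1, the C1 inhibitor (173). On in MHCC97H and off in Huh7 were 568 genes, 417 of them protein-coding, led by KRT20, MMP7, CEACAM6, a surface glycoprotein of gut epithelium (485 FPKM), and MSN, moesin, which links actin to the membrane (235). MSN stood at 0, 0 and 0.0153 FPKM in Huh7 against 236, 247 and 223, and its relatives EZR and RDX, at 68.9 and 70.1 in Huh7, were on in both lines. The same on and off pattern held in the miR-628-3p libraries for 419 of the 476 and 462 of the 568. Of the 568 genes off in Huh7, 54 (9.51%) lie on the X chromosome, where 441 of the 13191 tested genes lie. The 568 were not filtered by mean FPKM, so some of them, such as KRT80, were not tested and the 2 sets differ. Among the 54 are MSN, MAGED1 (138 FPKM in MHCC97H), IL13RA2 (128) and SH3BGRL (72.5). Of the 476 off in MHCC97H, 18 (3.78%) lie on the X chromosome.

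Differences also moved with chromosome. On chromosome 13 the median of 218 tested genes was 1.02, and 89.0% of them were above 0. There 115 genes were called at least 2-fold higher in Huh7 and 9 in MHCC97H, and the interquartile range ran from 0.53 to 1.45. RB1, given above, lies there, as does the clotting factor gene F10, so the difference of RB1 stands beside a shift of the whole chromosome. On the X chromosome the median of 441 genes was -0.76, with 78 genes at 2-fold toward Huh7 and 183 toward MHCC97H. Chromosomes 8, 17 and 12 had medians of -0.46, -0.37 and -0.36, and chromosomes 5, 6 and 22 of 0.39, 0.39 and 0.34. In the miR-628-3p libraries the medians were 1.17 on chromosome 13 and -0.69 on the X chromosome. DNA copy number was not measured, and its part in these shifts was not tested.

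**Figure D4:**
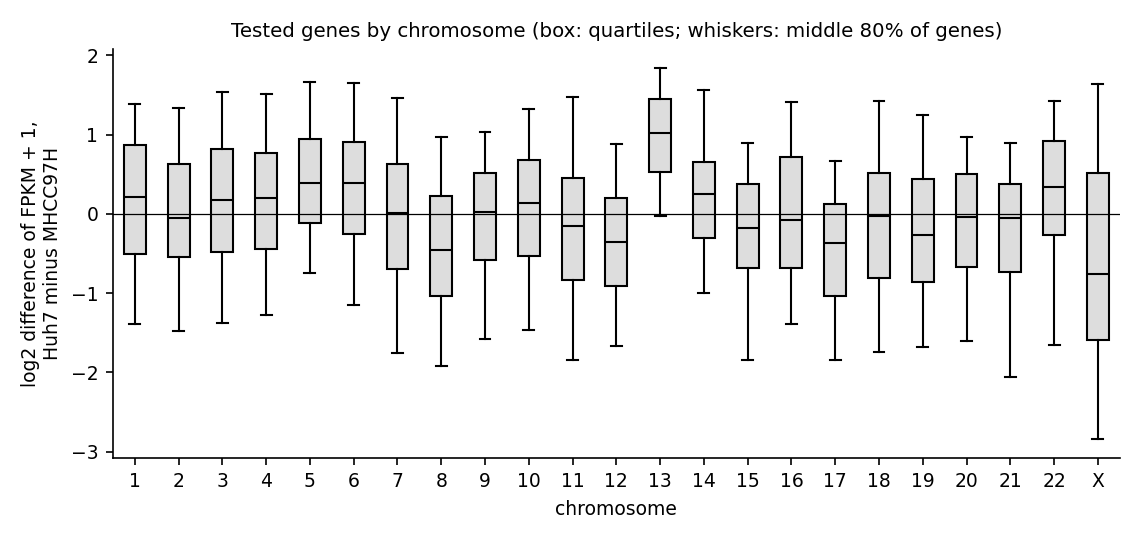
Difference in log2(FPKM + 1), Huh7 minus MHCC97H, of the tested genes on each chromosome, with boxes for quartiles, a line for the median and whiskers over the middle 80% of genes. Chromosome 13 lies above the others with a median of 1.02, and the X chromosome lies lowest at -0.76.

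The contrast of lines was repeated in the 6 libraries with miR-628-3p, which share no library with the controls. There 13129 genes passed the same filter, 80.3% were called and 36.5% were called at 2-fold, 2292 of them higher in Huh7 and 2496 higher in MHCC97H. Of the 4418 genes called at 2-fold in the controls and tested in both sets, 3956 were called at 2-fold in the same direction, which is 89.5% of them and 84.7% of the 4673 such genes of the miR-628-3p libraries. In all 4395 of the 4418 were called in the same direction, and 0 were called at 2-fold in the opposite one. Of the 286 genes named by rule and tested in both sets, 281 had the same sign and 275 differed by under 1 on the log2 scale. CDH1 was among the exceptions in size, at 2.42 in the controls and 1.04 in the miR-628-3p libraries, with means of 20.6 FPKM in Huh7 and 9.45 in MHCC97H there. ALB was at 8.79 and 7.48, CCL20 at 4.68 and 6.07, H19 at -5.21 and -6.93 and CDKN1C at -2.11 and -4.09. In the repeat too Huh7 received a mimic and MHCC97H a vector, so it does not separate line from delivery.

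**Figure D5:**
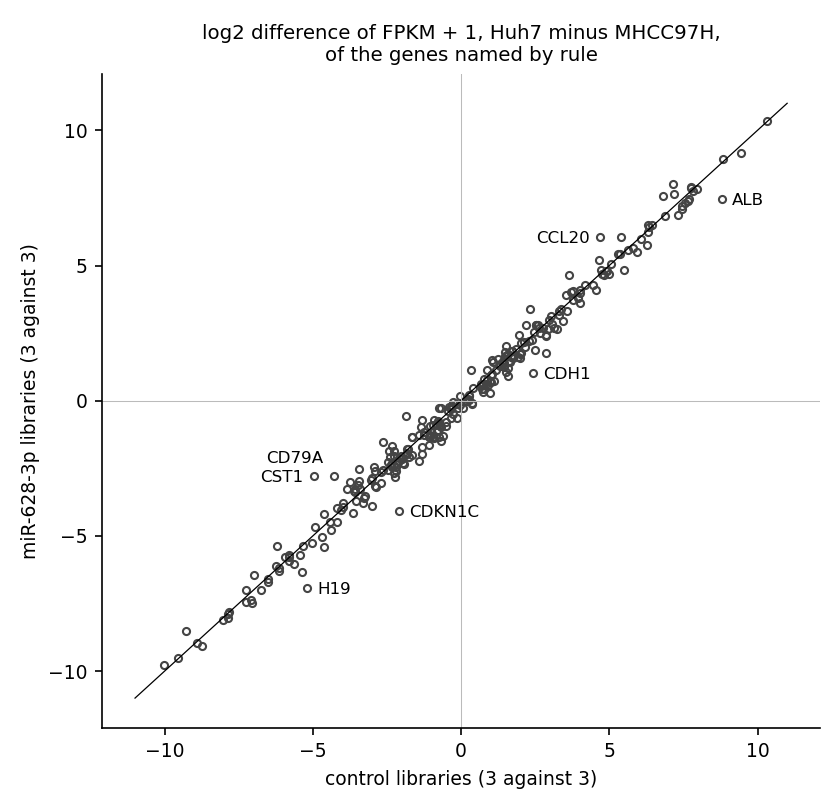
Difference in log2(FPKM + 1), Huh7 minus MHCC97H, of the 286 genes named by rule in the control libraries (x axis) and in the miR-628-3p libraries (y axis), with 1 circle per gene and the line of equal values. Most genes lie on the line from KRT20 at the lower left to AFP at the upper right, and the labelled genes lie furthest from it.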

How the data were processed

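Messenger RNA of 2 human liver cancer lines was sequenced in 12 libraries, 3 in each of 4 groups, and the 6 control libraries are compared here. Per the labels' protocols, total RNA came from Trizol lysates, and poly-A selected, dUTP stranded libraries were read from both ends on a DNBSEQ-T7. The submitters' processing notes name HISAT2, HISAT, HTSeq, GRCh38 and hg38. Versions, and whether counting used the strand, are not given in the sources used here, so reads of overlapping antisense genes cannot be set apart. The authors deposited FPKM per gene, and 100% of values times exon length were whole reads within 0.01. Of 912 list members and named genes, 50 are covered over at least 50% of their span by another protein-coding gene on the same strand, where shared reads may have been dropped.

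After a filter at a mean FPKM of 1, limma 3.58.1 (R 4.3.3) was fitted to log2(FPKM + 1), two-sided, with eBayes and a mean-variance trend. Adding 1 understates the change of low genes. P-values were Benjamini-Hochberg adjusted over all genes tested. The members and the 37 gene lists were chosen with earlier results of these data known, and 4 lists in the closing section and the isozyme pairs after the values were seen. The rule for named genes took the 15 protein-coding genes with the largest difference per direction among called genes whose groups did not overlap. It also took up to 4 called members per list and direction, 46 identity genes and the 5 highest genes per line, 295 in all. Some genes and 1 list are not reported here. Further list members are named after their values were seen. Folds against a group at 0 use 3 reads per library as the floor. GC content came from GENCODE release 29. Tables and figures used Python 3.11.15, numpy 2.4.6, pandas 2.3.3, scipy 1.17.1 and matplotlib 3.10.9. The fit was tested on simulated data. Alternatives changed the pseudocount, filter, scaling, variance model, library weights, fit over 12 libraries, GC and length correction and the libraries kept, added a block on replicate number, and used limma voom on the recovered reads.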

Additional observations from a re-analysis of the deposited data

How the results depend on the processing

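With a filter at a mean FPKM of 5 the counts fell with the number of genes tested, to 3620 genes higher in MHCC97H, 1347 and 1419 at 2-fold toward Huh7 and MHCC97H, and 1437 and 1500 in the miR-628-3p libraries. Under the other alternatives these counts stayed within 1.5 times the values given. Leaving out 1 control library at a time gave 5215 to 5532 genes higher in Huh7 and 5253 to 5693 higher in MHCC97H, with 2016 to 2205 and 2281 to 2499 at 2-fold. The same in the miR-628-3p libraries gave 2177 to 2443 and 2396 to 2622 at 2-fold. Deviations from the group means of same-numbered libraries of the 2 lines correlated at -0.14, -0.03 and 0.11. Those of differently numbered libraries correlated at -0.23 to 0.20. With 3 libraries per group these values cannot tell whether libraries with the same number were handled together. With the replicate number as a block the counts were 5481 and 5520 called and 2127 and 2388 at 2-fold. In the miR-628-3p libraries they were 2292 and 2497. Over 289 named genes and all alternatives, 5679 values kept their direction and side of the threshold, 20 lost the call, 20 gained it and 2 reversed. The reversals were ASS1 at 0.0718 under the GC and length correction, with and without the block, and the cause was not tested. Scaling moved the median of all genes to at most 0.06. At 2-fold, limma voom on the recovered reads called 2559 and 2798 genes, and a pseudocount of 0.1 called 2532 and 2755. Among the lists, 1 library or setting moved some counts of 1 to 6 members by over 1.5 times, such as 2 of the growth factors toward Huh7 without Huh7 library 1 or 3, in place of 4. Depth limits the genes at or under the floor of 3 reads per library, where a 0 is no sign of absence.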

Other observations

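KRT20, LGALS4, CEACAM6 and VSIG1 were among the 15 largest differences toward MHCC97H, and a list of genes of gut epithelium was therefore read after these values were seen, as levels and with no test. Of 27 listed genes 18 passed the filter, several of them only through MHCC97H, so their count in each direction is not given. LGALS4, a galectin of intestinal epithelium, was at 0.356, 0.14 and 0.433 FPKM in Huh7 and 949, 1031 and 981 in MHCC97H. CDH17, liver-intestine cadherin, was at 5.1, 5.38 and 5.39 against 79.8, 78.7 and 78.7, and TFF1, TFF2 and TFF3, the mucosal trefoil peptides, averaged 35.8, 24.5 and 13.8 FPKM in MHCC97H and under 0.1 in Huh7. VIL1, villin, was higher in Huh7, at 55.3 ± 3.04 against 7.93 ± 0.409 FPKM (mean ± SD, n = 3). The gut factors CDX1 and CDX2 gave no difference of this kind, with CDX1 at 0 in all 6 libraries and CDX2 at 1.82 and 1.86 FPKM, and GPA33, MUC2, REG4 and FABP2 averaged under 0.1 FPKM in both lines. The hepatocyte markers ALB, APOA1, APOB, TTR, SERPINA1, HNF4A, FGB, TF and AHSG were all higher in Huh7, and in MHCC97H they averaged between 0.32 FPKM for APOA1 and 13.9 for ALB.

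Further groups read in the same way, after the values were seen, also split by line. The caveolin, ERM and annexin or S100 genes had members on both sides. Several passed the filter only through MHCC97H, so their count in each direction is not given. On the MHCC97H side CAV2 was at 12.8 and 1399 FPKM, S100A6 at 126 and 2184 and EHD2, which holds caveolae at the membrane, at 0.00543 and 42.3. On the Huh7 side ANXA6 was at 64.2 and 0.442 FPKM, ANXA3 at 24.4 and 8.54 and RDX, radixin, at 70.1 and 30. Some aldehyde and ketone detoxifying enzymes also passed the filter only through MHCC97H, so their counts are not given either. Among these enzymes AKR1A1 (1.47) and AKR7A2 (1.05) were at least 2-fold higher in Huh7. ALDH3A1, which clears aldehydes, was at 0.244, 0.0637 and 0.148 against 482, 508 and 491 FPKM. Of the metallothionein genes MT1E averaged 56.7 FPKM in Huh7 and 0.0262 in MHCC97H, and MT1A, MT1F, MT1G, MT1M and MT1X were at 0 in each MHCC97H control library.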
